A study of Mus musculus with 128 samples.

Results

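App and 7 genes of amyloid processing were followed in the brains of 3 mouse models of Down syndrome. They are App, its homologues Aplp1 and Aplp2, the beta-site proteases Bace1 and Bace2, the gamma-secretase genes Psen2 and Ncstn, and the alpha-secretase gene Adam10. The genes were chosen by name for their part in cutting the App protein, and make up 8 of 21225 genes on the array. RNA was measured by array in forebrain at embryonic day (E) 15.5 and in adult cortex, hippocampus and cerebellum, and each trisomic group (TS) was set against euploid littermates (Eup). Ts1Cje and Dp(16)1/Yey (Dp16 below) embryos and adults came from trisomic males mated to C57BL/6J females (C57BL/6J or C57BL/6N in the study's methods). Ts65Dn animals came from Ts65Dn/F1 females mated to B6EiC3Sn.BLiAF1 males. Between Ts65Dn and the other 2 models, therefore, model, cross and parent of origin cannot be told apart. Ts1Cje and Dp16 shared the kind of cross and the paternal origin of the trisomy but were separate strains. Euploid animals of each cross carried 2 copies of all 8 genes. App lies on mouse chromosome 16 (MMU16) and has 3 copies in Ts65Dn and Dp16 but 2 in Ts1Cje, whose triplicated segment begins distal to it. Bace2 lies further along MMU16 and has 3 copies in all 3 models. Aplp1 (chromosome 7), Aplp2, Bace1 and Adam10 (all on 9), and Psen2 and Ncstn (both on 1) have 2 copies throughout. Ts65Dn also carries 3 copies of genes on MMU17 that have no orthologue on the human chromosome, and Ts1Cje has lost 1 copy of a few genes of MMU12. At E15, 5 TS and 5 Eup embryos were measured for Ts1Cje, 6 and 7 for Ts65Dn, and 6 and 6 for Dp16, of both sexes. Adult groups held 5 TS and 5 Eup males of 6 to 7 months, and the same animals gave all 3 regions.

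App is a membrane protein that is cut in 2 competing ways. Alpha-secretase, for which Adam10 is the main enzyme in neurons, cuts within the amyloid-beta stretch. Beta-secretase, which in the brain is chiefly Bace1, cuts at its start, and gamma-secretase then releases amyloid-beta from the remaining stub. Psen2 encodes a catalytic subunit of gamma-secretase and Ncstn encodes nicastrin, its substrate-binding subunit. Bace2 is a close relative of Bace1 that can also cut within the amyloid-beta stretch. Aplp1 and Aplp2 resemble App and pass through the same enzymes but hold no amyloid-beta. In people, an added copy of the human gene leads to early amyloid plaques.

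The start-site windows of App and Aplp2 are shown because App has 3 copies in TS animals of Ts65Dn and Dp16, while Aplp2 is its homologue with 2 copies. Each runs from 250 bases before to 50 after the start in RefSeq, assembly GRCm38.p6, and capitals mark the letters GGGCGG, the core of a GC box. The windows are chr16:85173658-85173957 for App and chr9:31211799-31212098 for Aplp2, both on the minus strand.
App: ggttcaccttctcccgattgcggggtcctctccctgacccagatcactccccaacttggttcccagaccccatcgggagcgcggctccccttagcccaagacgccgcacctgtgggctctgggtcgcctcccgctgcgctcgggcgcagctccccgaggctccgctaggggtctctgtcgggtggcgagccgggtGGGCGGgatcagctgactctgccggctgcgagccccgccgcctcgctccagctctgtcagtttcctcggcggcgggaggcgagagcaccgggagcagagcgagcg
Aplp2: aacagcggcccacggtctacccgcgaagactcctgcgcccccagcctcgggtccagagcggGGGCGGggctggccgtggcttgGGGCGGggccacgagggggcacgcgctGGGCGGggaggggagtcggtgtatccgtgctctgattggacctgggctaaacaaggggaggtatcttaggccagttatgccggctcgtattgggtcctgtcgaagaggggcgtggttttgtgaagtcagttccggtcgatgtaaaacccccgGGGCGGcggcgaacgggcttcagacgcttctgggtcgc
The App window held the motif 1 time and 71% G or C, and the Aplp2 window held it 4 times with 67% G or C. On either strand, GGGCGG or its complement CCGCCC was present in 11714 of 32851 windows of 300 bases (35.7%), whose median content of G or C was 52.7%. Of 6 members with a window in the table, 5 held it in 1 or more windows: Aplp1 2 times, Adam10 3 times and Psen2 4 times in 1 of its 2 windows, beside App and Aplp2. The Ncstn window held none.

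Across 128 arrays of 65 animals, values were log2 signals that are comparable only within 1 of the 12 tables of a model and tissue, since array medians were 8.52 to 8.55 in Ts1Cje E15, 7.24 to 7.29 in Ts65Dn E15, 7.39 to 7.48 in Dp16 E15 and 6.45 to 6.74 in adult tables. Levels were therefore not ordered across tables. Neuron markers stood above the table median for 8 of 8 genes in all 12 tables, cerebellar granule markers for 6 of 6 in each cerebellum table, and forebrain markers for 0 of 6 there. In 119 of 120 comparisons of a summed marker list the TS and Eup animals overlapped. The exception was choroid plexus in Ts1Cje E15, at 13.19 to 13.30 in Eup and 13.11 to 13.19 in TS. The spread of an array about the gene medians of its table (interquartile range) had a median of 0.154, and stood apart at 0.41 in Eupm13 and 0.42 in TSm10 of Dp16 E15 and at 0.56 in Eup347 and 0.58 on 1 of 2 arrays of TS348 in Ts1Cje cortex. Litters were not given in the sources used here. The tissues are mixtures of cells, and in them fewer cells of a type and less RNA per cell cannot be told apart.

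Adult Dp16 values carried a doubt about a label. The animal labelled Eup274 had the other genes of the triplicated segment at the level of the TS animals in all 3 regions, with a median log2 excess over the remaining Eup animals of 0.34 to 0.46. The 5 Dp16 adults labelled TS had 0.30 to 0.39, and the remaining 4 labelled Eup had -0.18 to -0.05. Over all tables, the other animals labelled Eup lay between -0.18 and 0.07, and those labelled TS between 0.26 and 0.55. Below it is called the animal labelled Eup274 and the adult Dp16 values that turned on it are given with and without it.

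The Ts65Dn hippocampus array of TS18 went against its tissue label. Its summed forebrain markers read 8.89, against 11.17 to 11.49 on the other 9 arrays of that table. It was below all 9 for 6 of 6 forebrain and 6 of 6 hippocampus markers, with Neurod6 at 4.55 against 9.34 to 10.05. Its cerebellar granule markers were above the other 9 arrays for 3 of 6 genes and below for 2. The segment genes of this array were at the TS level, with a median log2 excess of 0.43, and the cortex and cerebellum arrays of the same animal did not stand apart in these markers. Ts65Dn hippocampus results are given with and without it.

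App signal was higher in trisomic animals in each of the 8 comparisons in which they had 3 copies, by 1.17- to 1.33-fold. Of these, 3 were DEX, meaning that the limma P value adjusted jointly over all genes and all 12 comparisons was below 0.10, and all 3 were in Ts65Dn. In Ts1Cje, which has 2 copies of App in TS and Eup alike, the 4 fold changes (FC) lay between 0.98 and 1.03 and none was DEX. Over all 12 comparisons 0.168% of gene comparisons were DEX and higher in TS, and 0.189% were DEX in either direction. Beside each App value, the median log2 change over all genes was between -0.02 and 0.03.

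In Ts65Dn E15 forebrain, App read 11.25, 11.45 and 11.54 (lowest, median, highest) in 7 Eup embryos and 11.69, 11.85 and 11.95 in 6 TS embryos. Every TS embryo was above every Eup embryo. The log2 change was 0.41 (SE 0.05, FC 1.33, 95% interval 1.23 to 1.44, adjusted P = 0.0035). In this comparison 0.25% of all genes were DEX and higher, and 0.306% had all TS animals above all Eup animals.

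Ts65Dn cortex held the narrowest groups. App read 12.63, 12.62, 12.65, 12.63 and 12.63 in the Eup animals and 12.94, 12.94, 12.95, 12.95 and 12.98 in the TS animals. The groups did not overlap and the distance between them was several times the range within either. The change was 0.32 (SE 0.05, FC 1.25, 1.17 to 1.34, adjusted P = 0.013), in a comparison where 0.33% of genes were DEX and higher and 0.886% did not overlap in this direction.

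In Ts65Dn cerebellum the Eup animals read 12.41, 12.44, 12.46, 12.38 and 12.44 and the TS animals 12.82, 12.74, 12.73, 12.79 and 12.81. Again no TS animal fell within the Eup range. The change was 0.35 (SE 0.05, FC 1.27, 1.18 to 1.38, adjusted P = 0.013), where 0.278% of genes were DEX and higher and 0.966% did not overlap. These 3 App calls held with each single animal of their table left out and under each alternative setting run.

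Ts65Dn hippocampus had a change of the same size that was not DEX. App read 12.02, 12.04, 12.15, 12.18 and 12.21 in Eup and 12.69, 12.42, 12.31 and 12.50 in TS, with TS18 at 12.48. Both groups were spread more widely than in cortex or cerebellum, yet all TS animals were above all Eup animals. The change was 0.36 (SE 0.09, FC 1.28, 1.12 to 1.47, adjusted P = 0.33), and without the TS18 array it was also 0.36 (SE 0.09, FC 1.28, 1.12 to 1.48, adjusted P = 0.37). Of all genes, 0.132% were DEX and higher there and 0.961% did not overlap, or 0.151% and 1.86% without that array.

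Dp16 E15 forebrain showed a wide range among embryos. App read 10.92, 11.68 and 11.85 (lowest, median, highest) in 6 Eup and 11.57, 11.87 and 12.25 in 6 TS. The lowest value belonged to Eupm13, and the groups overlapped. The change was 0.30 (SE 0.16, FC 1.23, 0.98 to 1.56, adjusted P = 0.83), and 0.17 without Eupm13 (adjusted P = 0.78). Here 0.0895% of genes were DEX and higher and 0.24% did not overlap.

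In Dp16 cortex App read 12.62, 12.52, 12.61 and 12.61 in Eup, 12.82 in the animal labelled Eup274, and 12.86, 12.92, 12.88, 12.79 and 12.86 in TS. Only the animal labelled Eup274 reached the TS range. With it the change was 0.23 (SE 0.07, FC 1.17, 1.05 to 1.30, adjusted P = 0.59). Without it the change was 0.27 (SE 0.06, FC 1.21, 1.10 to 1.33, adjusted P = 0.26) and the groups did not overlap. The background of DEX and higher genes was 0.00942% with it and 0.155% without, and that of separated groups 0.302% and 0.89%.

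Dp16 hippocampus gave the same picture. Eup animals read 12.49, 12.51, 12.48 and 12.54, the animal labelled Eup274 read 12.84, and TS animals read 12.82, 12.83, 12.79, 12.84 and 12.82. The 4 other Eup animals lay well below every TS animal, while the labelled one lay among them. With it the change was 0.25 (SE 0.07, FC 1.19, 1.07 to 1.33, adjusted P = 0.52). Without it App was DEX, at 0.32 (SE 0.06, FC 1.25, 1.15 to 1.36, adjusted P = 0.048). The backgrounds were 0.0565% DEX and higher and 1.76% separated with it, and 0.283% and 3.45% without it.

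In Dp16 cerebellum the Eup animals read 12.50, 12.42, 12.45 and 12.50, the animal labelled Eup274 read 12.74, and the TS animals 12.78, 12.83, 12.81, 12.79 and 12.86. All TS animals were above all animals labelled Eup here, the doubtful one included. The change was 0.29 (SE 0.08, FC 1.22, 1.09 to 1.37, adjusted P = 0.37). Without that animal it was DEX, at 0.35 (SE 0.06, FC 1.27, 1.15 to 1.40, adjusted P = 0.071). DEX and higher genes made up 0.00942% with it and 0.335% without, and separated genes 0.259% and 1.57%.

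Counted over the 8 comparisons with 3 copies, App was DEX in 3, had an unadjusted P below 0.05 in 7 and had separated groups in 5. Leaving out the animal labelled Eup274 made these counts 5, 7 and 7, leaving out the TS18 hippocampus array left them at 3, 7 and 5, and leaving out both gave 5, 7 and 7. The median log2 change was 0.31. A signal that followed copy number would be 1.5-fold, and the 95% interval held 1.5 in 1 of the 8, the Dp16 E15 comparison with the wide spread. Background compresses fold changes on arrays, so a distance from 1.5 does not measure RNA against copy number. By qRT-PCR the study reported larger App fold changes at E15 than by its own array, in both Ts65Dn and Dp16. In Dp16 its qRT-PCR change at E15 was significant, where its array change was not. Its array value for Ts65Dn E15 came from fewer embryos and was lower than the FC of 1.33 found here. For adult cortex and hippocampus it described the changes by both methods as following gene dosage. The MMU16 segment genes above the table median had a median FC of 1.25 to 1.36 in these 8 comparisons. App itself is counted in their totals here. App ranked above 38 of 60 in Ts65Dn E15, 10 of 58 in cortex, 18 of 59 in hippocampus and 18 of 62 in cerebellum. In Dp16 it ranked above 28 of 70, 12 of 65, 15 of 68 and 24 of 68. With the animal labelled Eup274 left out, the adult ranks were above 10 of 65, 14 of 68 and 18 of 68, and with the TS18 array left out App in Ts65Dn hippocampus was above 17 of 57. The other segment genes raised the doubt about the animal labelled Eup274, while App had no part in it.

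Ts1Cje served as the 2-copy comparison for App. At E15 the Eup embryos read 12.32, 12.48, 12.55, 12.47 and 12.50 and the TS embryos 12.43, 12.50, 12.47, 12.59 and 12.58. The groups were interleaved, with a log2 change of 0.05 (SE 0.05, adjusted P = 0.91). Adult changes were -0.02 (SE 0.10, adjusted P = 0.98) in cortex, 0.01 (SE 0.04, adjusted P = 0.98) in hippocampus and 0.03 (SE 0.07, adjusted P = 0.96) in cerebellum. In cortex the lowest animals were Eup347 at 12.24 and TS348 at 12.28, against 12.49 to 12.62 in the rest, and the 2 arrays of TS348 read 12.06 and 12.51.

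**Figure D1:**
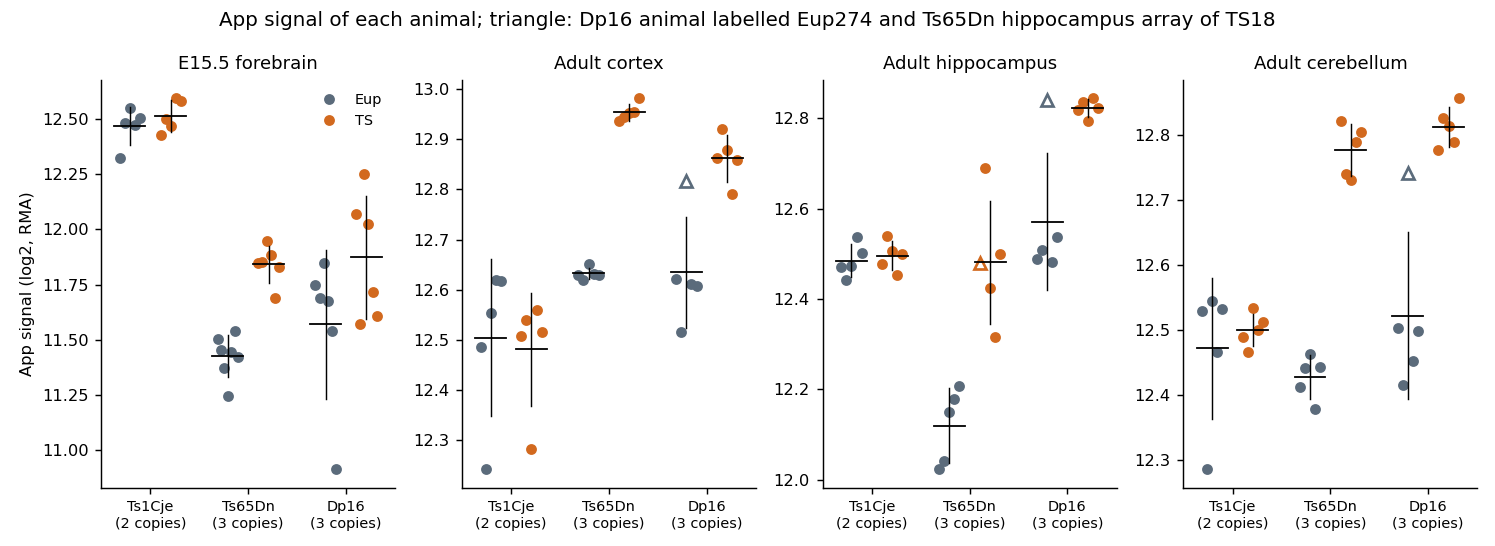
App log2 signal of each animal in the 12 tables, by model and tissue, with Eup and TS side by side, dots for animals and bars for the mean ± SD, and triangles for the animal labelled Eup274 and the Ts65Dn hippocampus array of TS18. All TS animals sit above all Eup animals in the 4 Ts65Dn panels, most tightly in cortex at 12.94 to 12.98 against 12.62 to 12.65, and in Dp16 cerebellum, while the groups overlap in Dp16 E15, in Dp16 cortex and hippocampus (there only through the animal labelled Eup274) and in the Ts1Cje panels.

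The difference between models was tested as the TS effect of 1 model minus that of another. For App, Ts65Dn minus Ts1Cje was 0.37 (SE 0.16) at E15, 0.34 (SE 0.10) in cortex, 0.35 (SE 0.09) in hippocampus and 0.32 (SE 0.08) in cerebellum, with adjusted P values of 0.93, 0.60, 0.50 and 0.43. Each SE pools the spread of all 3 models in a tissue, so that at E15 also holds the wide Dp16 embryos. In their own tables the E15 App effects of Ts65Dn and Ts1Cje each had an SE of 0.05. With all groups in 1 limma fit this E15 difference had an adjusted P of 0.43. Dp16 minus Ts1Cje was 0.26, 0.25, 0.24 and 0.26 in the same order, none passing the adjustment. Both sets of differences share the Ts1Cje animals. Of 12 App differences 7 had an unadjusted P below 0.05, and 0 of 96 differences over the 8 members were called by limma. Over all genes 0.0373% of such differences were called and 5.28% had an unadjusted P below 0.05.

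Single animals mattered for these calls. Without Ts1Cje Eup347 the App difference of Ts65Dn minus Ts1Cje was called in cortex (0.41, adjusted P = 0.075) and cerebellum (0.37, adjusted P = 0.084). Without the animal labelled Eup274, Dp16 minus Ts1Cje was 0.29, 0.31 and 0.32 in the 3 adult regions (adjusted P = 0.68, 0.41 and 0.19, with 0.0546% of all differences called). Without the TS18 array, Ts65Dn minus Ts1Cje in hippocampus was 0.35 (adjusted P = 0.48), with 0.0455% called. Between the 2 models with 3 copies, Ts65Dn minus Dp16 was 0.11 at E15 (95% interval -0.19 to 0.42), 0.09 in cortex (-0.10 to 0.29), 0.11 in hippocampus (-0.08 to 0.30) and 0.06 in cerebellum (-0.11 to 0.22). In the adult regions these became 0.05, 0.04 and 0.00 without the animal labelled Eup274. At E15 the difference was 0.24 (adjusted P = 0.60) without Eupm13, and that of Dp16 minus Ts1Cje was then 0.13 (adjusted P = 0.89). With all animals each of these intervals held 0.

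Averaging the 3 regions of each adult animal, a fit added after seeing the data, gave an App change of 0.34 in Ts65Dn (SE 0.04, FC 1.27, adjusted P = 0.0010), which was DEX, and 0.34 without the TS18 animal (adjusted P = 0.0025). In Dp16 it was 0.26 (SE 0.06, FC 1.19, adjusted P = 0.14) with all TS above all Eup animals, and 0.31 (SE 0.04, FC 1.24, adjusted P = 0.0025), now DEX, without the animal labelled Eup274. In Ts1Cje it was 0.01 (SE 0.05). The share of genes DEX and higher in these means was 0.4% in Ts65Dn, 0.141% in Dp16 (0.598% without that animal) and 0.316% in Ts1Cje.

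**Figure D2:**
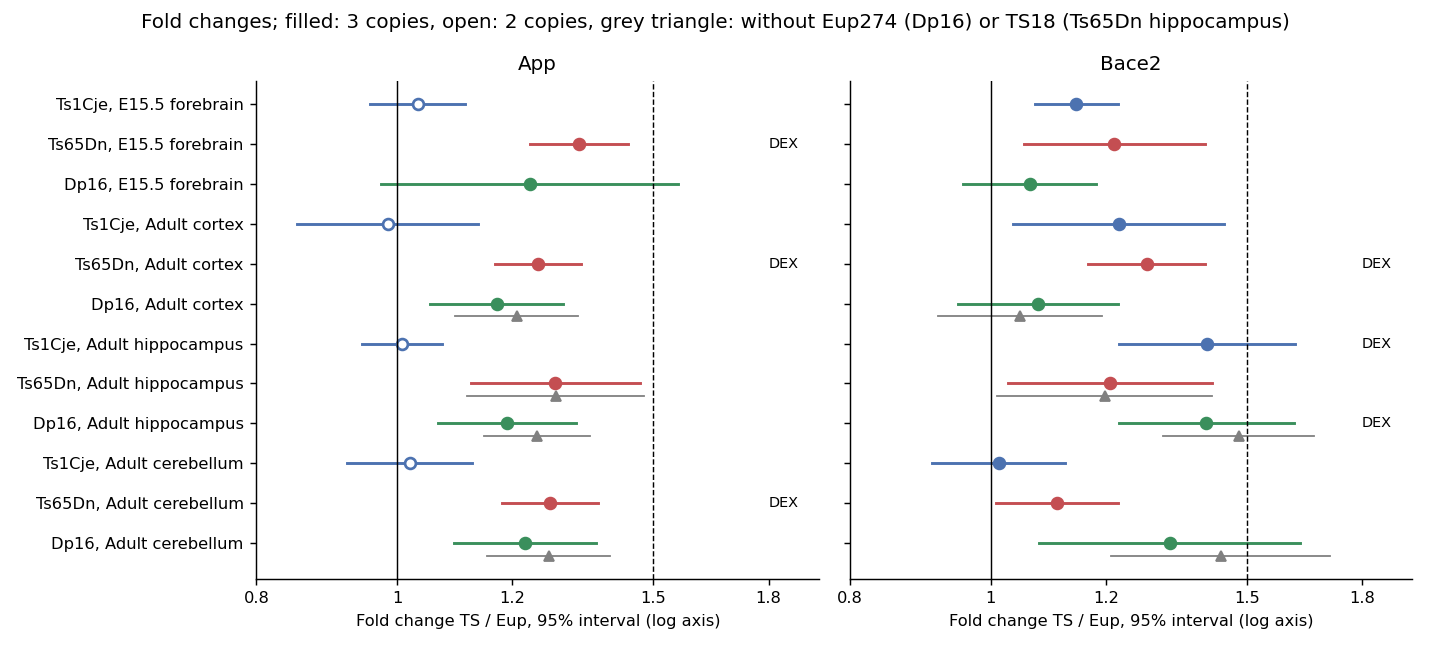
Fold change (TS over Eup, log axis) of App and Bace2 in each comparison with its 95% interval, filled where TS animals have 3 copies and open where they have 2, with a dashed line at 1.5 and DEX written beside called values. Grey triangles give the value without the animal labelled Eup274 (Dp16 adults) or without the TS18 array (Ts65Dn hippocampus), and App lies at 1.17 to 1.33 with 3 copies and at 0.98 to 1.03 with 2.

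Bace2, the other triplicated member, gave weak signals that lay below the table median in all 12 tables. It was higher in TS animals in 12 of 12 comparisons, although the change in Dp16 E15 turned to -0.02 when the arrays were quantile normalized again. It was DEX in 3 comparisons, had an unadjusted P below 0.05 in 9 and had separated groups in 4, with a median log2 change of 0.28. Without the animal labelled Eup274, without the TS18 array, and without both, these counts were again 3, 9 and 4. The background over all 12 comparisons was 0.168% DEX and higher, 6.24% with an unadjusted P below 0.05 in either direction and 0.788% separated upwards.

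Hippocampus held 2 of the Bace2 calls. In Ts1Cje, Bace2 read 5.75, 5.71, 5.81, 5.49 and 5.36 in Eup and 5.95, 6.10, 6.09, 6.34 and 6.11 in TS. Every TS animal was above every Eup animal, and the change was 0.49 (SE 0.09, FC 1.41, adjusted P = 0.084), where 0.25% of genes were DEX and higher and 1.24% were separated. In Dp16, Bace2 read 5.68, 5.60, 5.73 and 5.75 in Eup, 6.06 in the animal labelled Eup274, and 6.14, 6.21, 6.45, 6.34 and 6.14 in TS. The labelled animal stood between the groups, closer to the TS animals. The change was 0.49 (SE 0.09, FC 1.41, adjusted P = 0.080) with it and 0.57 (SE 0.08, FC 1.48, adjusted P = 0.011) without it. DEX and higher genes there made up 0.0565% with it and 0.283% without, and separated genes 1.76% and 3.45%. In Ts65Dn hippocampus, where TS18 read 5.88 and the other TS animals 5.71 to 5.92 against 5.22 to 5.78 in Eup, the groups overlapped. There the change was 0.27 (SE 0.11, FC 1.21, adjusted P = 0.75), and 0.26 (SE 0.11, FC 1.20, adjusted P = 0.76) without the TS18 array.

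Ts65Dn cortex held the third call. Bace2 read 5.51, 5.48, 5.61, 5.45 and 5.43 in Eup and 5.91, 5.70, 5.87, 5.95 and 5.85 in TS. The groups were separated, and the change was 0.36 (SE 0.06, FC 1.28, adjusted P = 0.049). In this comparison 0.33% of genes were DEX and higher and 0.886% were separated. Ts1Cje cortex had a change of 0.29 (SE 0.11, FC 1.22, adjusted P = 0.73) with Eup347 at 6.12, inside the TS range of 5.90 to 6.21, and the other Eup animals at 5.61 to 5.78. In that comparison 0.0283% of genes were DEX and higher and 0.363% separated. In Dp16 cortex Bace2 overlapped, with TS at 5.60 to 5.94 and the animal labelled Eup274 the lowest Eup at 5.50. The Dp16 change was 0.11 (SE 0.08, FC 1.08, adjusted P = 0.87) and 0.07 (SE 0.08, adjusted P = 0.91) without it.

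At E15, Bace2 was separated in Ts1Cje but not DEX. Eup embryos read 7.61, 7.43, 7.41, 7.43 and 7.52 and TS embryos 7.68, 7.67, 7.68, 7.72 and 7.63. The highest Eup embryo lay just below the lowest TS embryo, and the change was 0.20 (SE 0.04, adjusted P = 0.24), in a comparison where 0.236% of genes were DEX and higher and 1.01% separated. Without the embryo Eup05 it was called, at 0.23 (adjusted P = 0.042). Ts65Dn embryos overlapped at 5.28, 5.69 and 5.76 (lowest, median, highest) in Eup and 5.73, 5.85 and 6.23 in TS, a change of 0.28 (SE 0.10, adjusted P = 0.66). Dp16 embryos overlapped at 5.81, 5.90 and 6.04 in Eup and 5.82, 6.03 and 6.13 in TS, a change of 0.09 (SE 0.07, adjusted P = 0.87).

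In cerebellum the 3 models gave different sizes. Ts1Cje Eup animals read 5.40, 5.66, 5.51, 5.50 and 5.33 and TS animals 5.55, 5.48, 5.48, 5.53 and 5.45. These values were interleaved, with a change of 0.02 (SE 0.07, FC 1.01, adjusted P = 0.98), although 0.349% of genes were DEX and higher and 1.16% separated in this comparison. Ts65Dn gave 0.15 (SE 0.06, FC 1.11, adjusted P = 0.77). Dp16 Eup animals read 5.25, 5.10, 5.06 and 5.62, the animal labelled Eup274 read 5.84, and TS animals read 5.78, 5.91, 5.76, 5.85 and 5.61. The animal labelled Eup274 lay within the TS range, and 1 other Eup animal reached the lowest TS value. The change was 0.41 (SE 0.14, FC 1.33, adjusted P = 0.66), and 0.53 (SE 0.11, FC 1.44, adjusted P = 0.17) without that animal.

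Tested as differences, Dp16 minus Ts1Cje in cerebellum was 0.39 for Bace2 (SE 0.14, unadjusted P = 0.010, adjusted P = 0.88), and 0.51 (SE 0.12, adjusted P = 0.23) without the animal labelled Eup274. Between regions, the Ts1Cje effect on Bace2 in cerebellum minus hippocampus was -0.48 (SE 0.13, unadjusted P = 0.0013), cerebellum minus cortex was -0.27 (unadjusted P = 0.050), and the Dp16 effect in hippocampus minus cortex was 0.38 (SE 0.16, unadjusted P = 0.024), or 0.50 (SE 0.14) without the animal labelled Eup274. None passed the adjustment. Of 72 region differences over the 8 members 0 were called by limma and 6 had an unadjusted P below 0.05, against 0.00262% and 3.48% of all genes. The share called was 0.00419% without the animal labelled Eup274 and 0.00314% without the TS18 array, and in both cases 0 member differences were called. App region differences were between -0.01 and 0.06, and those of Dp16 reached 0.07 without the animal labelled Eup274.

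The Bace2 calls were near the threshold. Leaving out single animals ended the call in 8 of 10 cases in Ts65Dn cortex, 8 of 10 in Ts1Cje hippocampus and 9 of 10 in Dp16 hippocampus, with adjusted P values up to 0.14, 0.23 and 0.22. In the mean of the 3 adult regions the change was 0.27 in Ts1Cje (SE 0.07, adjusted P = 0.20), 0.26 in Ts65Dn (SE 0.06, adjusted P = 0.11, and 0.25 with adjusted P = 0.19 without the TS18 animal) and 0.34 in Dp16 (SE 0.07, FC 1.26, adjusted P = 0.063). Dp16 was DEX there, also without the animal labelled Eup274, at 0.39 (SE 0.06, FC 1.31, adjusted P = 0.0076). The 95% interval held 1.5 in 3 of 12 comparisons, namely Ts1Cje hippocampus, Dp16 hippocampus and Dp16 cerebellum, and again in 3 without the animal labelled Eup274. Compression by array background applies to these intervals too.

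**Figure D3:**
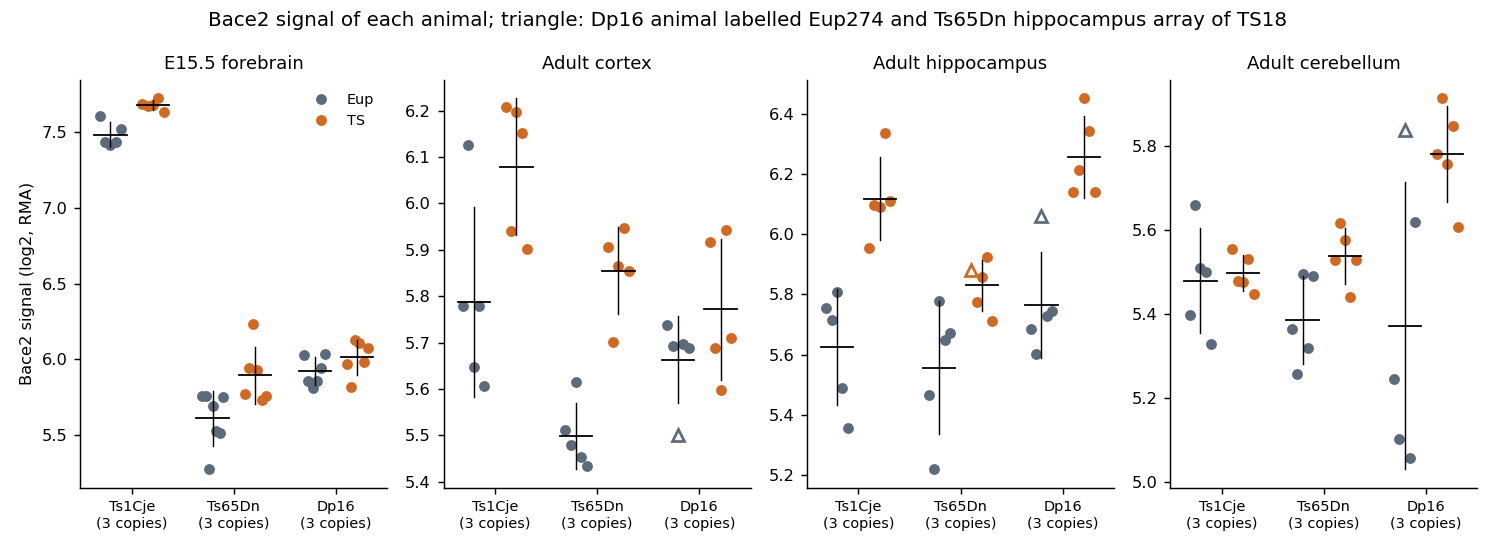
Bace2 log2 signal of each animal in the 12 tables, by model and tissue, with dots for animals, bars for the mean ± SD, and triangles for the animal labelled Eup274 and the Ts65Dn hippocampus array of TS18. Eup and TS animals are separated in Ts1Cje E15, Ts65Dn cortex, Ts1Cje hippocampus and Dp16 hippocampus, and overlap in the other 8 panels.

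The 5 genes on each side of App and of Bace2 in chromosome order were read beside them. Around App lie Mir155, Mrpl39 (a mitochondrial ribosome subunit), Jam2 (a junctional adhesion molecule), Atp5j (ATP synthase coupling factor) and Gabpa (an ETS transcription factor) on one side, and Gm10791, Cyyr1, the metalloproteases Adamts1 and Adamts5, and N6amt1 on the other. In Ts65Dn the segment was taken to begin at Mrpl39, and 9 of 9 neighbours from there on were higher in each tissue. Of them 4 were DEX at E15, 7 in cortex, 2 in hippocampus and 5 in cerebellum, with median FC of 1.28, 1.36, 1.32 and 1.37, and the hippocampus values without the TS18 array were 9 of 9, 2 and 1.32. Mir155, on the other side of Mrpl39, had an FC of 1.04, 1.14, 1.28 (the TS18 array included) and 1.02, none DEX. Its copy number in Ts65Dn was not established here. The study listed miR155 among the upregulated microRNAs of Ts65Dn hippocampus, at a looser limit than DEX.

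In Dp16, where all 10 neighbours have 3 copies, 10 were higher at E15, 8 in cortex, 9 in hippocampus and 9 in cerebellum, and 3, 0, 0 and 1 were DEX. Without the animal labelled Eup274 the adult counts of DEX neighbours were 4, 6 and 6, and the median FC rose from 1.20, 1.32 and 1.31 to 1.30, 1.40 and 1.39. The doubt about that animal came from segment genes above the table median, these neighbours among them where they were bright enough. A rise without it was therefore built in and tests nothing. In Ts1Cje, with 2 copies, 5, 6, 7 and 7 of 10 were higher, and median FC was 1.01 to 1.04. Of 40 gene comparisons there, 0 were DEX by limma or by the methods' t-test. By limma 6 had an unadjusted P below 0.05, namely 2 of 10 at E15, 0 in cortex, 2 in hippocampus and 2 in cerebellum. Of all genes, 2.79%, 1.2%, 4.19% and 3.62% were higher at that limit in these comparisons, and 1.6%, 1.68%, 6.11% and 5.44% were lower. The neighbours' share was thus larger outside cortex, on few genes, and an excess was not tested. Jam2 and Mrpl39 were DEX in all 4 Ts65Dn tissues and in Dp16 E15. The FC of Jam2 in Ts65Dn was 1.45 at E15, 1.47 in cortex, 1.88 in hippocampus (1.70 without the TS18 array) and 1.42 in cerebellum, above that of App in each.

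Bace2 sits between B3galt5, Igsf5, Itgb2l, Pcp4 and Dscam on one side and Mx1, Fam3b, Mx2, Tmprss2 and Ripk4 on the other. Of these, Dscam is a neuronal adhesion molecule, Mx1 and Mx2 are interferon-induced GTPases and Tmprss2 is a serine protease. All have 3 copies in the 3 models, and 6 to 9 of 10 were higher in each comparison, with 0 to 3 DEX and a median FC of 1.04 to 1.14. In adult Dp16 without the animal labelled Eup274, 5, 8 and 8 of 10 were higher and 2, 1 and 1 were DEX. Any of these genes above the table median were also among those that raised the doubt about that animal. Dscam was DEX in 6 comparisons, among them Dp16 E15 (FC 1.63), Ts1Cje cerebellum (1.61) and Ts65Dn cortex (1.46), and in Ts65Dn hippocampus both with the TS18 array (1.48) and without it (1.42).

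**Figure D4:**
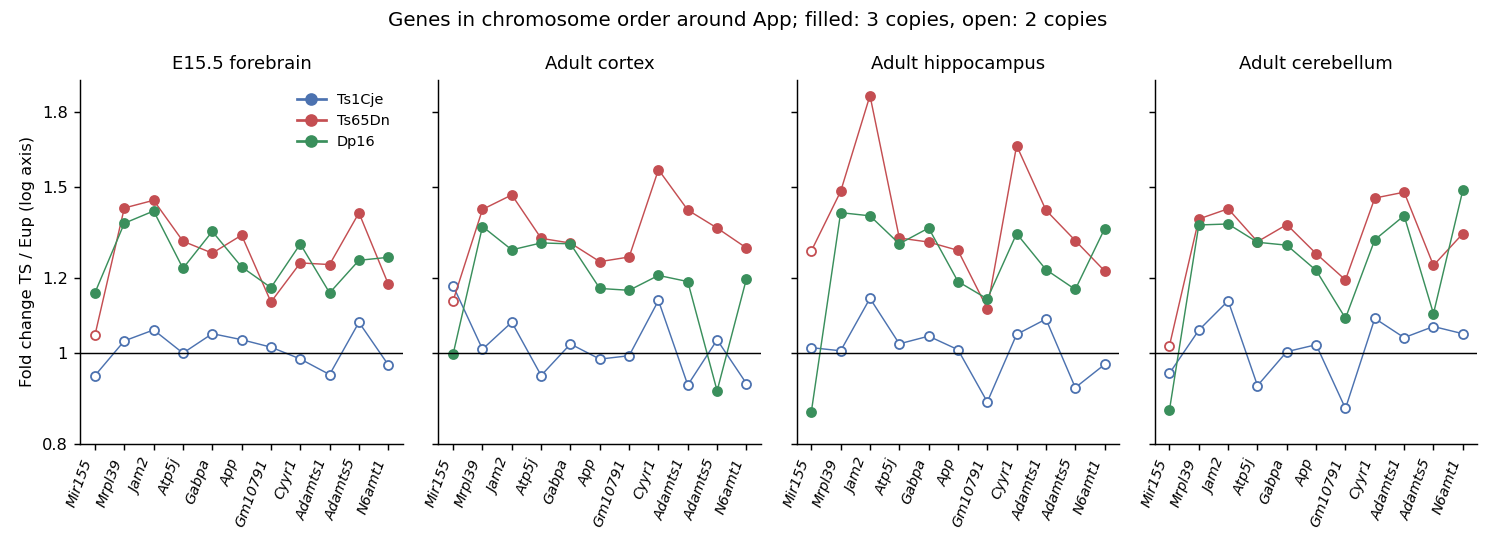
Fold change (TS over Eup, log axis, lines joining the genes of a model, filled points for 3 copies) of App and of the 5 genes on each side of it in chromosome order, by model and tissue. In Ts65Dn, whose segment was counted from Mrpl39, the 9 neighbours counted as triplicated are higher in every tissue with median fold changes of 1.28 to 1.37. In Ts1Cje, with 2 copies, the medians are 1.01 to 1.04.

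The 6 members with 2 copies gave 76 comparisons together with App in Ts1Cje. By limma 0 were DEX, 2 had an unadjusted P below 0.05, and the median log2 change was 0.02, with a range from -0.25 to 0.18. The methods' t-test called 1, which is Ncstn in Ts65Dn cerebellum. Without the animal labelled Eup274, without the TS18 array and without both, 0 were DEX and 2 had an unadjusted P below 0.05. The background was 0.189% for DEX genes in either direction and 6.24% for an unadjusted P below 0.05. With all animals the groups were separated upwards in 3 of the 76, against 0.788% of all gene comparisons.

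The App homologues were DEX in no comparison. Aplp1 changes ran from -0.25 to 0.10 with a median of -0.02 and were higher in 6 of 12 comparisons. The largest was in Dp16 E15, where Eup embryos read 9.43, 11.20 and 11.47 (lowest, median, highest) and TS embryos 9.95, 10.71 and 11.34. Eupm13 was the lowest embryo, both groups were more than 1 log2 unit wide, and the change was -0.25 (SE 0.32, adjusted P = 0.92). In Ts1Cje cerebellum Aplp1 read 11.75, 11.82, 11.73, 11.77 and 11.56 in Eup and 11.49, 11.63, 11.51, 11.57 and 11.36 in TS. Only the lowest Eup animal fell within the TS range, and the change was -0.21 (SE 0.07, adjusted P = 0.65). Its differences of effect in this tissue were 0.27 for Ts65Dn minus Ts1Cje and 0.26 for Dp16 minus Ts1Cje, each with an unadjusted P below 0.05 and an adjusted P of 0.94. The second was 0.29 (SE 0.13, adjusted P = 0.86) with the animal labelled Eup274 left out.

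Aplp2 changes ran from -0.03 to 0.18 with a median of 0.04 and were higher in 9 of 12. In Ts65Dn hippocampus it read 10.68, 10.65, 10.76, 10.76 and 10.78 in Eup and 10.97, 10.79, 10.81 and 10.82 in TS, with TS18 at 11.15. All TS animals were above all Eup animals by a narrow margin, and TS18 was the highest. The change was 0.18 (SE 0.09, adjusted P = 0.82), and 0.12 (SE 0.08, adjusted P = 0.84) without the TS18 array. Of all genes, 0.961% were separated upwards there, and 1.86% without that array. The cerebellum minus hippocampus difference in Ts65Dn was -0.20 (unadjusted P = 0.021), and -0.14 (unadjusted P = 0.055) without it. At E15 in the same model, where App rose by 1.33-fold, Aplp2 read 10.33, 10.45 and 10.48 in Eup and 10.35, 10.44 and 10.50 in TS, so that the ranges nearly coincided.

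Adam10, the alpha-secretase gene, was higher in 10 of 12 comparisons with changes of -0.04 to 0.15 and a median of 0.05. In Dp16 hippocampus it read 9.29, 9.44, 9.45 and 9.38 in Eup, 9.55 in the animal labelled Eup274, and 9.57, 9.57, 9.49, 9.70 and 9.54 in TS. That animal was the highest of those labelled Eup and lay within the TS range. The change was 0.15 (SE 0.07, adjusted P = 0.78), and 0.18 (SE 0.07, adjusted P = 0.66) without it, with all TS above all Eup animals. Of all genes, 3.45% were separated in this way there without that animal. In Ts65Dn hippocampus TS18 was the lowest animal at 8.82, below the Eup range of 9.00 to 9.10, and the change of 0.07 (SE 0.10, adjusted P = 0.93) became 0.15 (SE 0.08, adjusted P = 0.81) with the groups separated once its array was left out. Without that array 1.86% of all genes were separated upwards. In the mean of the 3 Dp16 adult regions the change was 0.10 (SE 0.04, adjusted P = 0.57), and 0.08 (SE 0.04, adjusted P = 0.60) without the animal labelled Eup274.

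Bace1, the main beta-secretase, had changes of -0.15 to 0.07 with a median of -0.002 and was higher in 6 of 12. In Ts1Cje hippocampus it read 9.23, 9.22, 9.23, 9.23 and 9.25 in Eup and 9.32, 9.32, 9.27, 9.28 and 9.27 in TS. The groups were separated, with every animal within about 0.1 log2 units of the others. In this comparison 1.24% of all genes were separated upwards. The change was 0.06 (SE 0.04, adjusted P = 0.87). Its lowest value was in Dp16 E15, at -0.15 (SE 0.10), where Eup embryos read 8.75, 9.09 and 9.21 (lowest, median, highest) and TS embryos 8.72, 8.87 and 9.23.

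Psen2 changes ran from -0.07 to 0.16 with a median of 0.002, higher in 6 of 12. Its signal was below the table median in Ts65Dn and Dp16 E15. Its highest value was in Dp16 E15, where Eup embryos read 6.34, 6.45 and 6.60 (lowest, median, highest) and TS embryos 6.40, 6.58 and 6.91. The TS embryos reached higher but began inside the Eup range, and the change was 0.16 (SE 0.09, adjusted P = 0.83).

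Ncstn changes ran from -0.12 to 0.09 with a median of 0.02, higher in 9 of 12. In Ts65Dn cerebellum it read 8.31, 8.30, 8.32, 8.32 and 8.30 in Eup and 8.37, 8.41, 8.37, 8.43 and 8.41 in TS. The groups were separated, and the Eup animals lay very close together. The change of 0.09 (SE 0.05, adjusted P = 0.83) was not DEX by limma, which moderates such small spreads, and had an adjusted P of 0.070 by the methods' t-test. In this comparison 0.966% of genes were separated upwards. Dp16 E15 gave the lowest change, -0.12 (SE 0.11), with Eupm13 again in the table.

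**Figure D5:**
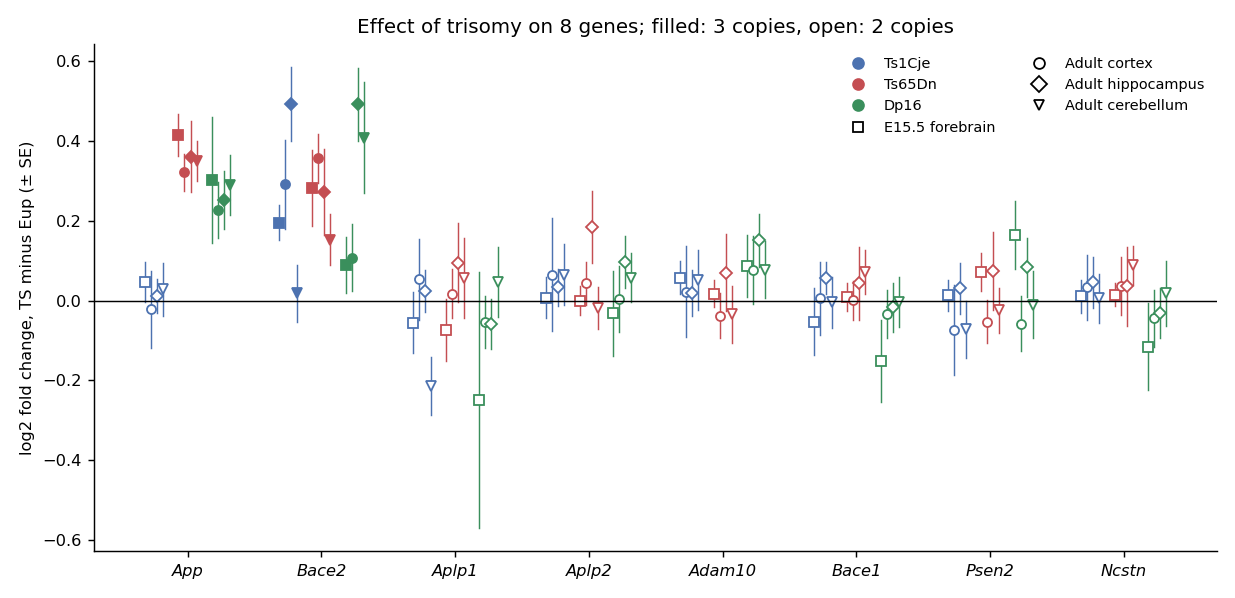
Log2 change (TS minus Eup) of the 8 members in the 12 comparisons, with bars of ± SE and with members that have 3 copies in TS animals marked. App in Ts65Dn and Dp16 and Bace2 in all 12 comparisons lie above 0, while the 6 other members lie between -0.25 and 0.18 with medians of -0.02 to 0.05.

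The wider pathway was read through 8 lists of 65 genes, 64 of which were measured. They covered App adaptors, App sorting, other Bace1 substrates, other alpha-secretases, amyloid removal, other gamma-secretase subunits, microglia genes of plaques, and modulators of processing. Of 768 gene comparisons 0 were DEX by limma, and 40 (5.21%) had an unadjusted P below 0.05, against 6.24% of all genes. The methods' t-test called 0, with 66 at an unadjusted P below 0.05. The share of 6.24% comes from limma and is no background for that count, from which no excess is read. The median log2 change was -0.003. Without the animal labelled Eup274 or without the TS18 array, 0 were DEX and 41 had an unadjusted P below 0.05, and without both these counts were 0 and 42.

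By list, an unadjusted P below 0.05 was found in 5 of 96 comparisons of App adaptors, 5 of 168 of sorting genes, 9 of 96 of Bace1 substrates, 0 of 24 of other alpha-secretases, 9 of 132 of amyloid removal genes, 3 of 48 of other gamma-secretase subunits, 8 of 96 of plaque microglia genes and 1 of 108 of modulators. List medians were between -0.02 and 0.01. The member with the lowest P in each list was not DEX. Ide, the insulin-degrading enzyme that also degrades amyloid-beta, had 0.46 in Ts1Cje cerebellum (SE 0.13, adjusted P = 0.43). Aph1a, a gamma-secretase subunit, had 0.65 in Ts1Cje cortex (SE 0.19, adjusted P = 0.56), and Cntn2, an axonal adhesion protein cut by Bace1, had -0.27 in Ts65Dn E15 (SE 0.08, adjusted P = 0.58).

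Cst7, the protease inhibitor cystatin F of microglia near plaques, had -0.33 in Ts65Dn hippocampus (SE 0.09, adjusted P = 0.51), and -0.27 (SE 0.09, adjusted P = 0.62) without the TS18 array. The Cst7 change was -0.31 in Dp16 hippocampus (SE 0.10, adjusted P = 0.60), or -0.30 (SE 0.11, adjusted P = 0.65) without the animal labelled Eup274, and -0.24 in Ts65Dn cerebellum (SE 0.07, adjusted P = 0.60). None of these was DEX, and its other 9 changes lay between -0.13 and 0.06. The lowest P values of their own lists were found in Dp16 hippocampus for Vps35 of the retromer at 0.26 (SE 0.09, adjusted P = 0.68), the cargo receptor Tmed10 at 0.23 (SE 0.08, adjusted P = 0.70) and the adaptor Apba3 at -0.13 (SE 0.05, adjusted P = 0.76). With the animal labelled Eup274 left out these were 0.30, 0.27 and -0.12 (adjusted P = 0.53, 0.59 and 0.75). The metalloprotease Adam9 had 0.14 in Ts1Cje cerebellum (SE 0.09, adjusted P = 0.84).

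Genes whose 12 changes were most like those of App were sought over all genes by Pearson's r, as a description without a test. The 12 points share animals across the regions of a model. The 5 nearest to App were Mrpl39 (r = 0.96), Itgb8 (0.96), Bach1 (0.95), Usp16 (0.94) and Atp5j (0.94), of which all but Itgb8 lie on the segment that Ts65Dn and Dp16 share and Ts1Cje lacks. Itgb8, an integrin subunit, is one of the MMU12 genes with 1 copy in Ts1Cje, and its 4 log2 changes there were -0.66, -0.79, -0.81 and -0.91, against -0.09 to 0.09 in the other models. Leaving out the animal labelled Eup274 or the TS18 array, Tmem196, another of these MMU12 genes, took the place of Atp5j and the other 4 were again among the 5. The 5 nearest to Bace2 were Plpp6 (r = 0.88), Sec23b (0.88), Rnf4 (0.86), 1810010H24Rik (0.86) and Phf5a (0.85). None lies on MMU16, and only Sec23b, Rnf4 and 1810010H24Rik were among the 5 in both omissions.

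Cell type markers were read beside these changes. Across the marker genes of 10 lists, with 8 neuron genes and 6 genes in each other list, 3 comparisons were DEX, all higher. They were Kdr of endothelial cells in Ts65Dn cortex (0.38, adjusted P = 0.091) and the choroid plexus gene Clic6, itself on the triplicated segment, in Ts1Cje E15 (0.31, adjusted P = 0.015) and Ts1Cje cerebellum (0.65, adjusted P = 0.063). Of all gene comparisons 0.189% were DEX in either direction. The marker count was 3 without the TS18 array, and 4 without both it and the animal labelled Eup274. In Ts65Dn cortex, where App and Bace2 were DEX, 6 of 6 endothelial markers were higher with a median of 0.10. In Ts65Dn hippocampus 6 of 6 were higher (median 0.08, Kdr 0.44 with adjusted P = 0.33), but 3 of 6 without the TS18 array (median 0.01, Kdr 0.40 with adjusted P = 0.45). In Ts65Dn cerebellum 4 of 6 were higher (median 0.07, Kdr 0.29 with adjusted P = 0.46). In Dp16 it was 5 of 6 in hippocampus (median 0.04, Kdr 0.23 with adjusted P = 0.68) and 5 of 6 in cerebellum (median 0.06, Kdr 0.24 with adjusted P = 0.74), and with the animal labelled Eup274 left out 4 of 6 (median 0.05, Kdr 0.25) and 5 of 6 (median 0.11, Kdr 0.28). In Dp16 cortex without that animal 4 of 6 were higher (median 0.06, Kdr 0.08). With all arrays, 49.7% of all genes were higher in Ts65Dn cortex, 59.3% in hippocampus and 54.5% in cerebellum. For Dp16 hippocampus and cerebellum these shares were 45.2% and 45.1%. Endothelial counts of Ts1Cje and of E15 are left out, so those given do not show whether the markers followed App copies. The summed endothelial level overlapped between TS and Eup animals in each of these comparisons, and the part of these markers in the App and Bace2 changes was not tested. Neuron markers in Ts65Dn cortex were higher for 4 of 8 genes with a median of -0.01.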

How the data were processed

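Total RNA of forebrain or of a brain region was hybridized by the authors to 128 Affymetrix Mouse Gene 1.0 ST arrays. As deposited by the authors, values are log2 signals from RMA (background corrected, quantile normalized and summarized over probes) with a custom probe set definition (MBNI CDF version 15) that gives 1 probe set per Entrez gene. The genome build is not given in the sources used here. Values of the whole-series table differed from those of the separate tables by at most 5e-09. No sequencing depth applies, and the number of arrays limits the precision. Of 21225 probe sets, 20768 were named through RefSeq (GRCm38.p6).

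Groups came from the sample titles. Repeat arrays of an animal were averaged. Each of 12 tables was fitted by limma 3.58.1 in R 4.3.3 with no filter on signal, and 1 Benjamini-Hochberg adjustment covered all 254700 P values, with DEX below 0.10. Differences between models (254700 P values) and between regions (191025) were fitted as contrasts of contrasts. Where nothing in the labels tells litters apart, P values measure the spread between these animals. Regions of an adult share an animal, as its number in the titles shows, and the fit with the animal as a block used duplicateCorrelation with statmod 1.5.0 (consensus correlation 0.061 in Ts1Cje, 0.077 in Ts65Dn and 0.069 in Dp16).

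The members and lists were chosen with earlier results of these data known. Named genes were the 8 members, list genes that were DEX or had the lowest P of their list, 5 neighbours on each side of App and Bace2, and the 5 genes most like each in their 12 changes. Psenen was not measured. Start-site sequences are those of RefSeq, and Bace1 and Bace2 had no entry. Alternatives were the methods' t-test, other adjustments and FDR limits, other normalizations, dim probe sets left out, first arrays only, 1 fit of all groups, array weights, sex, and each animal left out. The mean of the adult regions and the omissions of the animal labelled Eup274 and of the Ts65Dn hippocampus array of TS18 were added after seeing the data. Methods were tested on simulated data. Python 3.11.15 with numpy 2.4.6, pandas 2.3.3 and matplotlib 3.10.9 drew the figures.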

Additional observations from a re-analysis of the deposited data

Results flagged for a closer look

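In 19 of 192 groups of a member, model, tissue and genotype, 1 animal lay so far from the others that its gap exceeded the 95% limit of Dixon's test, which chance gives in about 1 in 20 groups. The animal labelled Eup274 was such an animal in 3 groups of adult Dp16, high for App in hippocampus (12.84) and cerebellum (12.74) and low for Bace2 in cortex (5.50). Eupm13 was low in Dp16 E15 for App (10.92), Aplp1 (9.43) and Aplp2 (10.23). TS348 of Ts1Cje was low in cortex for App (12.28), Aplp1 (12.17) and Adam10 (9.14), and in hippocampus low for Aplp1 (12.32) and high for Psen2 (6.99). Eup347 of Ts1Cje was low for Aplp2 in cortex (10.55) and cerebellum (11.38).

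Aplp2 held 5 more such values, namely TS278 in Dp16 cortex (10.95), Eup260 (10.88) and TS254 (11.10) in Dp16 hippocampus, Eup15 in Ts65Dn cerebellum (11.69) and Eup260 in Dp16 cerebellum (11.70). Adam10 was high in Eup16 of Ts65Dn cortex (9.62). With all animals included, no member passed the test of a difference between models or regions.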

How the results depend on the processing

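App was DEX in Ts65Dn E15, cortex and cerebellum under every alternative and with each animal left out. With all groups in 1 fit, 5 of 8 App effects with 3 copies were DEX, with Ts65Dn hippocampus (adjusted P = 0.011) and Dp16 E15 (adjusted P = 0.032) added, and so was Bace2 in Dp16 cerebellum (adjusted P = 0.015). That fit pools the spread of a gene over all groups, wide and narrow, while the main fits take it from 1 table. App in Ts65Dn hippocampus was also DEX when quantile normalized over all arrays (adjusted P = 0.082), and Bace2 in Ts1Cje E15 was DEX when quantile normalized per table or over all arrays and with array weights (adjusted P = 0.089, 0.082 and 0.024). Bace2 was DEX in 1 of 12 comparisons with the methods' t-test and in 1 at an FDR limit of 5%. Of the 76 effects with 2 copies the methods' t-test called 1. Leaving out dim probe sets took Bace2 out of the fit in all 12 tables, since it lay below each table median. That setting therefore does not test the Bace2 calls. The App effects with 3 copies stayed in that fit, and 1 of their 95% intervals held 1.5. The main count of 4 of 20 includes Bace2, so the 2 counts cannot be compared. With single animals left out, App calls ranged from 3 to 5 (5 without the animal labelled Eup274), Bace2 calls from 2 to 4, calls with 2 copies from 0 to 0, called model differences of members from 0 to 2 (2 without Ts1Cje Eup347) and called region differences from 0 to 0. With the animal as a replicate block, 0 region differences of members were called, and Bace2 in Ts1Cje cerebellum minus hippocampus had an unadjusted P of 0.00084 and an adjusted P of 0.81. Signs turned only for values near 0: Bace2 in Dp16 E15 was -0.0162 or -0.0167 when quantile normalized again per table or over all arrays. App in Ts1Cje was 0.00924 or 0.00733 with these settings in cortex and 0.0219 with first arrays only, -0.00309, -0.0141 or, with array weights, -0.00468 in cerebellum, -0.00044 with first arrays only in hippocampus and -0.0109 with array weights at E15. With animals left out, App in Ts1Cje ranged from -0.0878 to 0.0271 in cortex, -0.00012 to 0.0240 in hippocampus and -0.0182 to 0.0466 in cerebellum, and Bace2 in Ts1Cje cerebellum from -0.0194 to 0.0629. The cause of these changes was not tested.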

Other observations

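Repeat arrays of 1 animal were read side by side in Ts1Cje. The 2 cortex arrays of TS348 read 12.06 and 12.51 for App, 8.82 and 9.46 for Adam10, 10.77 and 11.16 for Aplp2 and 6.19 and 6.21 for Bace2. The distance between them for App and Adam10 was wider than any App change in Ts65Dn or Dp16. However, 1 of these 2 arrays had the widest spread about the gene medians of all 128 arrays. Its interquartile range was 0.58, against 0.19 on the other and a median of 0.154. The distance therefore does not measure the technical spread of a usual array. The 3 hippocampus arrays of Eup324 ranged from 12.36 to 12.53 for App, from 10.95 to 11.27 for Aplp2 and from 5.63 to 5.86 for Bace2. Here too 1 array was wider, at 0.37 against 0.17 on each of the others. In Dp16 E15, Eupm13, the lowest embryo for App, Aplp1 and Aplp2, had the highest summed forebrain markers of its table (13.42) and the highest neural progenitor markers (12.94).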
